A study of Homo sapiens with 26 samples.

Results

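The distal long arm of chromosome 7 was examined in 16HBE cells, which were derived from human bronchial epithelium, as a block of 138 protein-coding genes out of 58735 annotated genes. The members start between positions 128790000 and 157010000 of chromosome 7 (GRCh38), a stretch of 28.22 Mb that holds 219 protein-coding genes. A gene was taken as a member if it had at least 10 counts in 3 or more of the 26 libraries; 77 genes fell short, and AKR1B1, SLC4A2, INSIG1 and PDIA4 were left out by name. The interval itself was drawn from a shared difference between the cystic fibrosis (CF) and wild-type (WT) lines in these libraries. The values of CF against WT are therefore given as a description of the members, with no test.

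CF cells were 16HBEge, a gene-edited derivative with the genotype DeltaF508 CFTR, and WT cells were 16HBE14o- with WT CFTR. RNA was measured in CF cells in high glucose (6 libraries), WT cells in high glucose (5), CF cells in normal glucose (6) and WT cells in normal glucose (6), and in WT cells that the labels call not polarized, also in normal glucose (3). High glucose was 17.5 mM and normal glucose 5.5 mM, kept for 7 days on Transwells, permeable supports on which the cells form a sheet, and each sample pooled 2 Transwells. The labels give this same protocol for every sample and do not say how the not polarized cells were grown otherwise. Each genotype is represented by 1 line, so a difference between CF and WT is a difference between these lines and cannot be assigned to the CFTR genotype alone. Whether the libraries of a group stem from separate cultures is not stated, so p-values measure only the spread between these samples. Counts of members below are set beside the share of all genes tested in the same fit that met the same criterion; the fit of the 23 glucose libraries tested 16338 genes.

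The arm holds genes with no common function, among them chromatin regulators, a cluster of zinc finger genes, signalling proteins, ubiquitin ligase subunits and mitochondrial proteins. The RNA level of a gene depends on its own promoter and enhancers, on the chromatin around it and on how many copies of its DNA a cell carries, so neighbours may differ or may move together. EZH2 is the enzyme of the Polycomb complex that silences genes by methylating histones, BRAF is a kinase that relays growth factor signals, CUL1 is the scaffold of a family of ubiquitin ligases, and KMT2C is a histone methyltransferase that acts at enhancers. MEST, in the proximal part of the interval, is an imprinted gene, read mainly from the paternal copy. CFTR, the chloride channel gene that was edited in the CF line, lies on the same arm and ends 11.1 Mb before the interval. The files hold RNA only, and no DNA measurement was analysed here.

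Promoters of 5 members are shown because these genes stand for the kinds of pattern described below: SMO lies before the point where the shared difference begins, TMEM209 and EZH2 lie within it and have typical values, MEST has one of the highest CF values, and CALD1 is lower in CF. Each is the 200 bases upstream of the gene's start in RefSeq (GRCh38.p14), on the gene's strand, 5′ to 3′, at chr7:129188433-129188632 (plus strand) for SMO, chr7:130205407-130205606 (minus strand) for TMEM209, chr7:148884292-148884491 (minus strand) for EZH2, chr7:130485975-130486174 (plus strand) for MEST and chr7:134779434-134779633 (plus strand) for CALD1. The CALD1 start in RefSeq lies inside the gene as annotated for the counts, so that window is an internal one. Whether the imprinted transcript of MEST starts at the window printed here was not examined. Capitals mark the GC box, searched as GGGCGG on the printed strand and as CCGCCC, its form on the other strand.
SMO: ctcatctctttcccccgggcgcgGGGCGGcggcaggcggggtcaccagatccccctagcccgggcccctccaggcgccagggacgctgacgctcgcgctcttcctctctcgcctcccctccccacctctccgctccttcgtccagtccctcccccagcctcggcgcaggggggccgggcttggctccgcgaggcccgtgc
TMEM209: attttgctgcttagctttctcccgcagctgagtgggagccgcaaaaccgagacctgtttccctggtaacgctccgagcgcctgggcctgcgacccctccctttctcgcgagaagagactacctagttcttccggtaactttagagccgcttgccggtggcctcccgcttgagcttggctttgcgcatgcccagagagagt
EZH2: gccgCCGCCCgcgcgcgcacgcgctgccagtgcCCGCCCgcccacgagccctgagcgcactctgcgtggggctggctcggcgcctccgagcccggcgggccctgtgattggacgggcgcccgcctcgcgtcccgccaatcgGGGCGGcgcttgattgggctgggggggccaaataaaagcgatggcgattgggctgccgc
MEST: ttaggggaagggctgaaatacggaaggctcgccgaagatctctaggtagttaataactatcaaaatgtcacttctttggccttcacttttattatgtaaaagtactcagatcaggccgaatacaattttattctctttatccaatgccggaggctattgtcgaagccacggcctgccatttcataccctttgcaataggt
CALD1: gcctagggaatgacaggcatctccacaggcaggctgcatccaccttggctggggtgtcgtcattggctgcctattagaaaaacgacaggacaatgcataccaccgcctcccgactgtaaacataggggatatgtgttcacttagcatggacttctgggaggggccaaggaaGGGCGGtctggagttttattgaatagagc

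The 26 libraries held 14658319 to 20413839 counts each, and 136 of the 138 members passed the low-count filter of the fit of the 23 glucose libraries. The 7 epithelial markers (EPCAM, KRT8, KRT18, KRT19, CDH1, KRT5 and KRT7) summed to between 5277 and 6707 CPM (counts scaled to library size) in every library. In high glucose their sums were 5818 to 6707 CPM in CF against 5277 to 5577 CPM in WT cells, without overlap. In normal glucose they were 5936 to 6276 CPM in CF against 5384 to 6122 CPM in WT cells, with overlap. PTPRC, the defining marker of leukocytes, reached at most 0.233 CPM. The 6 leukocyte markers summed to 4.70 to 7.10 CPM in CF against 6.43 to 9.77 CPM in WT cells in high glucose and to 3.25 to 7.58 CPM in CF against 4.90 to 9.57 CPM in WT cells in normal glucose. The 5 endothelial markers summed to 42.2 to 49.1 CPM in CF against 22.9 to 30.6 CPM in WT cells in high glucose, and to 31.7 to 62.4 CPM in CF against 20.43 to 26 CPM in WT cells in normal glucose. Almost all of it came from CDH5 and KDR, and PECAM1 had no count in 18 libraries. The 6 fibroblast markers ran the other way, at 18.4 to 30.5 CPM in CF and 26.6 to 43.4 CPM in WT cells in high glucose and 14.8 to 24.8 CPM in CF and 26.5 to 44.6 CPM in WT cells in normal glucose. COL1A1 was nearly their whole sum. Whether any of these lists has a part in the values of the members was not tested.

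Members were higher in CF than in WT cells along most of the interval. The median CF over WT log2 fold change of the 136 members was 0.54 in high glucose, a fold of 1.45, and 0.59 in normal glucose, a fold of 1.5, with quartiles of 0.42 and 0.75 in high and 0.35 and 0.79 in normal glucose. The other 482 tested protein-coding genes of chromosome 7 had medians of 0.01 and 0.00, and the 12623 on other chromosomes 0.01 and 0.01. The log2 fold change was above 0 for 126 members in high glucose (92.6%, against 51.5 percent of all genes) and for 124 in normal glucose (91.2%, against 50.9 percent). Since these values chose the interval, nothing is read from those shares.

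The difference did not begin at the proximal edge of the interval. The 13 tested members that start before UBE2H, an E2 ubiquitin-conjugating enzyme gene, had a median log2 fold change of 0.05 in high and -0.00 in normal glucose, close to the rest of the chromosome. Of these 13, 8 were above 0 in high and 6 in normal glucose (51.5 and 50.9 percent of all genes). STRIP2 was the highest of them, at 0.48 and 0.45. The 123 from UBE2H to the distal edge had medians of 0.57 and 0.61, folds of 1.49 and 1.53, and 118 of them were above 0 at each glucose level. This boundary was chosen after the values were seen and was not tested. The last gene before it, NRF1, a transcription factor of mitochondrial genes, ends at 129757082, and UBE2H, on the minus strand, spans 129830732 to 129952949, which leaves 73650 bases between them.

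**Figure D1:**
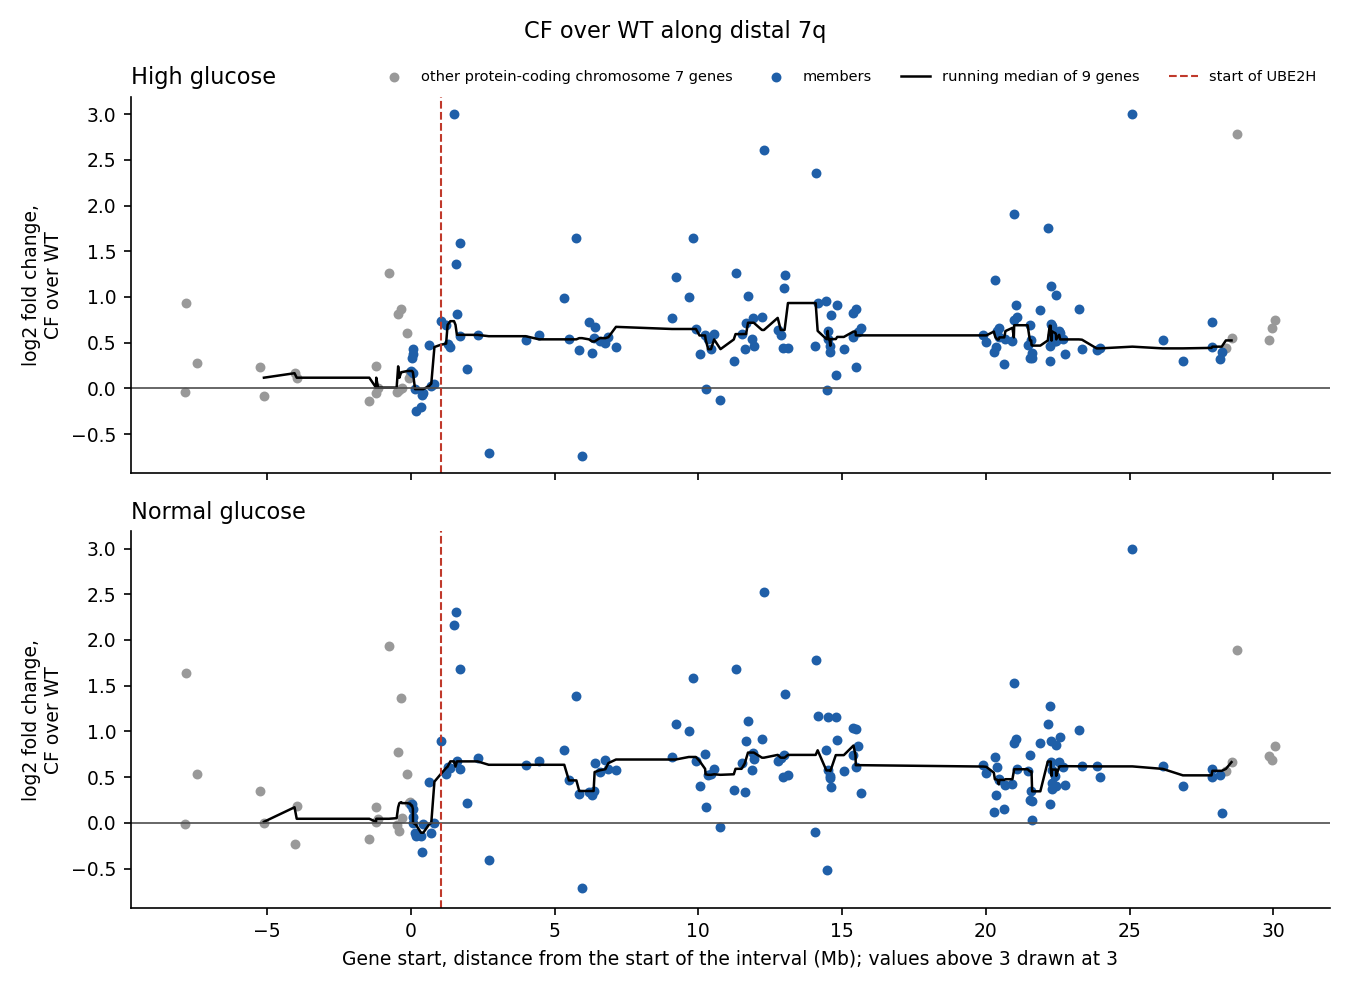
CF over WT log2 fold change of each tested protein-coding gene (points) against the distance of its start from the start of the interval in Mb, in high (upper) and normal glucose (lower); members are blue, other chromosome 7 genes grey, the line is the running median of 9 genes and the dashed line the start of UBE2H. The running median lies near 0 in parts before UBE2H, above 0 around the proximal edge of the interval, and mostly near 0.6 from UBE2H on at both glucose levels.

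NRF1 itself had 20.1, 22.9 and 26.7 CPM (lowest, median and highest library) in CF against 22.2, 22.3, 23.9, 21.0 and 23.4 CPM in the 5 WT libraries in high glucose. In normal glucose it had 20.8, 23.6 and 27.0 CPM in CF against 21.4, 23.3 and 26.3 CPM in WT cells. The lines overlapped fully. UBE2H had 361, 380 and 385 CPM in CF against 203, 219, 216, 246 and 249 CPM in WT libraries in high glucose, and 323, 346 and 419 CPM in CF against 180, 190 and 227 CPM in WT cells in normal glucose. Every CF library lay above every WT library, with log2 fold changes of 0.74 ± 0.08 and 0.90 ± 0.07 (SE).

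The proximal edge of the interval is itself a threshold on position, and most of the genes nearest to it on either side had low values. Just outside it, OPN1SW, a cone opsin, had log2 fold changes of 0.18 ± 0.09 in high and 0.23 ± 0.09 in normal glucose (SE), and CALU, a calcium-binding protein of the secretory pathway, 0.12 ± 0.06 and 0.22 ± 0.05. FAM71F2, under 1 CPM in every group, had 0.60 ± 0.40 and 0.53 ± 0.35, and its lines overlapped. Farther out the values varied. HILPDA had 0.87 in high and 1.36 in normal glucose and PRRT4 0.81 and 0.78, while IMPDH1 had -0.02 and -0.08 and METTL2B 0.01 and 0.05. Just inside, CCDC136 had 0.19 ± 0.18 and 0.19 ± 0.18, FLNC, an actin crosslinker, 0.33 ± 0.07 and 0.21 ± 0.07, and KCP 0.38 ± 0.28 and 0.06 ± 0.26.

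At the distal edge the difference ran on past the interval. Inside it, LMBR1, whose intron holds a limb enhancer of SHH, had log2 fold changes of 0.46 ± 0.05 and 0.59 ± 0.05 (SE) in high and normal glucose, NOM1 0.33 ± 0.11 and 0.52 ± 0.10, and MNX1, a homeobox gene, 0.40 ± 0.10 and 0.11 ± 0.09. The 6 tested genes beyond it, UBE3C, DNAJB6, PTPRN2, NCAPG2, ESYT2 and WDR60, were all above 0 at both levels, with medians of 0.60 and 0.71. DNAJB6, a co-chaperone, averaged 325 CPM in CF and 222 CPM in WT cells in high glucose and 311 CPM in CF and 196 CPM in WT cells in normal glucose.

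The size of the difference was similar in the windows given here, which leave out the first 4 Mb and the last genes of the interval. In windows of 4 Mb the median was 0.54 in high and 0.57 in normal glucose from EXOC4 to MTPN (14 genes), 0.59 and 0.68 from CREB3L2 to BRAF (21) and 0.54 and 0.57 from EZH2 to ACTR3B (40). From EZH2 to ACTR3B all 40 genes were above 0 at both levels. The last full window, DPP6 to LMBR1, held 5 genes with medians of 0.53 and 0.59. Of 225 bins of 10 Mb over the genome with at least 20 tested genes, 4 had a median above 0.4 at both glucose levels, and 3 of these lay on chromosome 7, in this stretch. Since the interval was drawn from these same values, nothing is read from that count.

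From UBE2H on, 82 of 123 members had a CF over WT fold between 1.25 and 1.75 in high glucose (9.78 percent of all genes did) and 73 in normal glucose (9.05 percent). A fold of 2 or more was found for 18 and 22 of them (1.90 and 1.96 percent of all genes). Both the median and the spread were larger at low levels. The 34 members averaging under 5 CPM had medians of 0.87 and 0.93. Their quartiles were 0.56 and 1.23 in high and 0.63 and 1.25 in normal glucose. Medians were 0.52 and 0.50 for the 45 between 5 and 50 CPM, and 0.55 and 0.61 for the 44 above 50 CPM. In the last of these groups the quartiles were 0.47 and 0.63 in high glucose and 0.56 and 0.71 in normal glucose. The minimum count could favour members that are high in CF: 8 (CPA4, CPA5, LRGUK, AKR1D1, TAS2R4, TAS2R5, WDR86 and DPP6) met it only through CF libraries and 1 only through WT libraries.

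The shared difference was seen in each library. The median over the 123 members from UBE2H on of each library's log2 CPM minus the WT normal glucose mean lay between 0.57 and 0.61 in the 6 CF high glucose libraries and between -0.07 and 0.09 in the 5 WT high glucose libraries. It lay between 0.58 and 0.65 in the 6 CF normal glucose libraries and between -0.10 and 0.05 in the 6 WT normal glucose libraries. No CF library overlapped a WT library on this measure, whereas over the 13 members before UBE2H and over the other chromosome 7 genes the lines overlapped. All members together took 0.722 to 0.769% of counts in CF and 0.501 to 0.548% in WT cells in high glucose, and 0.716 to 0.764% in CF and 0.490 to 0.532% in WT cells in normal glucose.

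**Figure D2:**
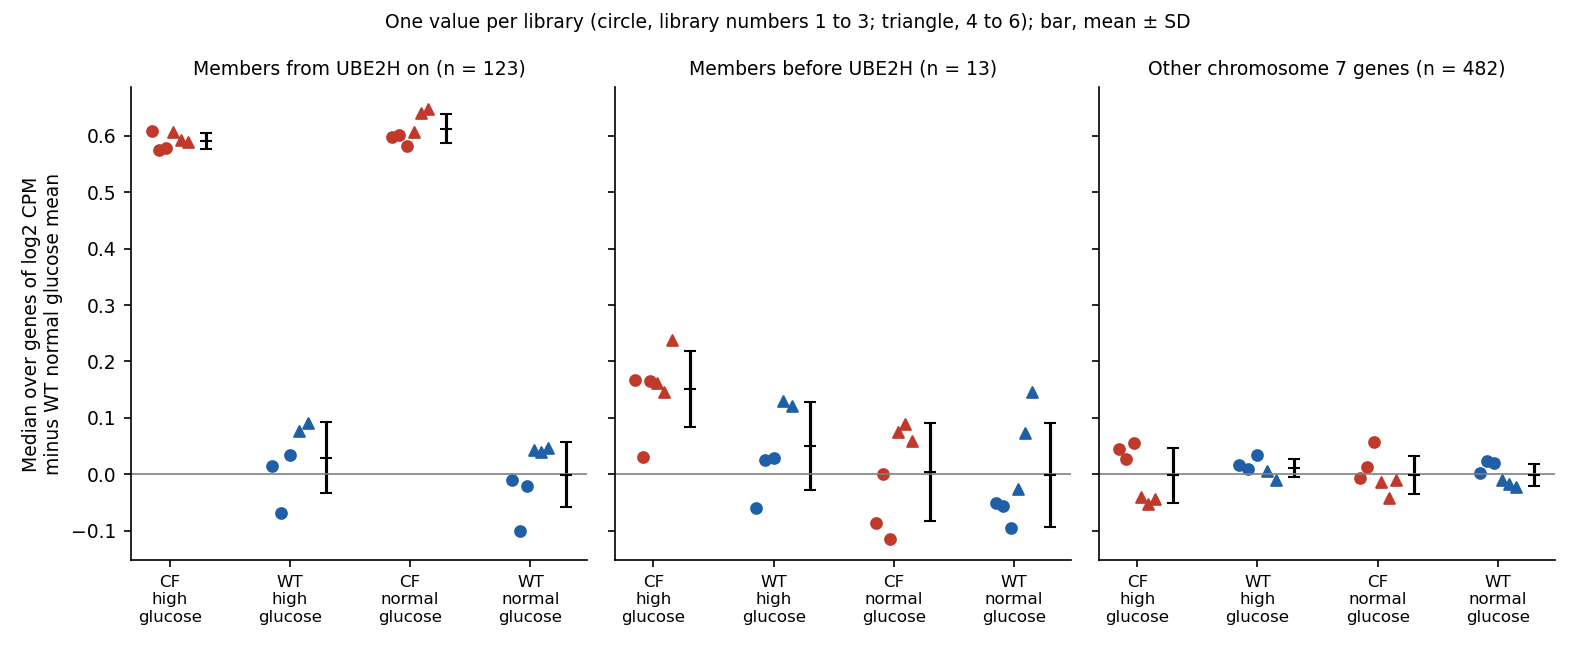
Median over the named gene set of log2 CPM minus the WT normal glucose mean, 1 point per library, for CF and WT cells in high and then normal glucose; circles are library numbers 1 to 3, triangles 4 to 6, and bars the mean ± SD over libraries. CF libraries sit at 0.57 to 0.65 for the 123 members from UBE2H on and around 0 for the 482 other chromosome 7 genes.

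Libraries numbered 1 to 3 and 4 to 6 differ from each other in these data, and the labels do not say what the numbers mark. In libraries 1 to 3 alone the median member log2 fold change was 0.56 in high and 0.58 in normal glucose, and in libraries 4 to 6 alone it was 0.49 and 0.57. Across the 136 members, which are not independent and share libraries and depth within each level, the high and normal glucose values had a Pearson r of 0.884 and a Spearman rho of 0.802.

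**Figure D3:**
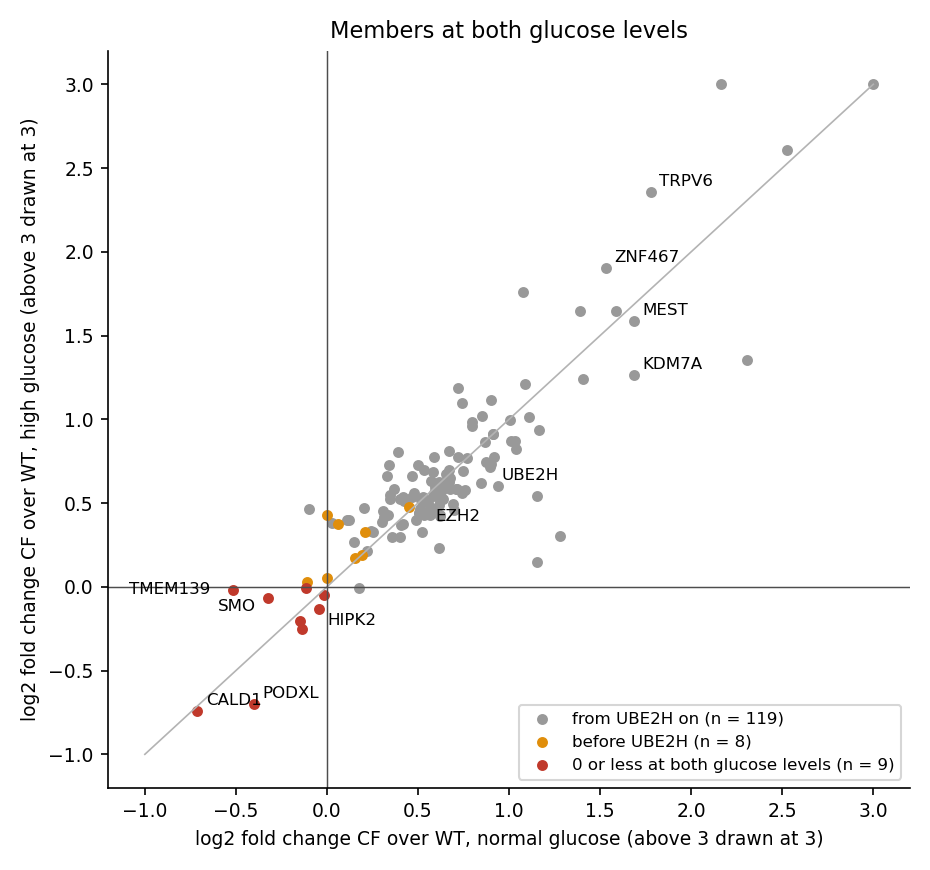
CF over WT log2 fold change of each tested member in high glucose (vertical) against normal glucose (horizontal); grey, from UBE2H on; orange, before UBE2H; red, 0 or less at both levels; the line marks equal values and values above 3 are drawn at 3. The medians are 0.54 (vertical) and 0.59 (horizontal), and CALD1 and PODXL lie lowest on the vertical axis.

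CF and WT libraries did not overlap, with CF higher, for 86 of 136 members in high glucose (6.77 percent of all genes), 80 in normal glucose (5.92 percent) and 72 at both levels (3.87 percent). The single member with CF wholly lower was PODXL in high glucose (7.23 percent of all genes) and CALD1 in normal glucose (7.07 percent). Of the members before UBE2H, FLNC and STRIP2 had no overlap in high glucose and none of the 13 in normal glucose.

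Among regulators of gene expression, 18 tested members of a list of chromatin and transcription genes had median log2 fold changes of 0.47 in high and 0.54 in normal glucose, with 15 and 14 of them above 0. Of all members, 92.6% in high and 91.2% in normal glucose were above 0 (51.5 and 50.9 percent of all genes). The interval was chosen on these values, so nothing is read from the counts above 0 in this list or those below. EZH2 (148807383 to 148884321, minus strand) had 61.4, 70.5 and 77.7 CPM in CF against 51.4, 44.8, 44.7, 47.7 and 58.1 CPM in WT libraries in high glucose, and 66.9, 80.8 and 88.4 CPM in CF against 46.5, 52.5 and 62.2 CPM in WT cells in normal glucose. No CF library fell within the WT range, and the log2 fold changes were 0.50 ± 0.09 and 0.55 ± 0.09 (SE). KMT2C (152134922 to 152436005, minus strand) averaged 61.9 ± 13.6 CPM in CF (SD, n = 6) and 45.9 ± 9.33 CPM in WT cells (n = 5) in high glucose and 81.0 ± 15.8 CPM in CF and 52.7 ± 10.2 CPM in WT cells (n = 6 each) in normal glucose. In high glucose its libraries 1 to 6 had 52.1, 53.9, 44.8, 79.1, 74.4 and 67.0 CPM in CF, against 40.2, 37.7, 39.7, 53.4 and 58.3 CPM in WT libraries 1 to 5. The lines overlapped over all libraries. Libraries 4 to 6 were higher than libraries 1 to 3 in each group, and within either set every CF library was above every WT library at both glucose levels.

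The highest of these regulators were KDM7A, TRIM24 and SMARCD3. KDM7A, a histone demethylase, had 33.8, 38.1 and 42.7 CPM in CF against 13.1, 17.0, 16.7, 17.4 and 15.9 CPM in WT libraries in high glucose, and 40.2, 45.5 and 50.8 CPM in CF against 12.8, 14.1 and 15.4 CPM in WT cells in normal glucose. That is a fold of 2.40 in high and 3.22 in normal glucose. TRIM24, a transcriptional cofactor that reads histone marks, had folds of 1.99 and 2.00, with a CF range of 76.1 to 84.6 CPM and a WT range of 35.2 to 43.1 CPM in high glucose. SMARCD3, a subunit of the SWI/SNF chromatin remodellers, had folds of 2.03 and 1.81. It overlaps CHPF2 on the opposite strand, which averages about 10 times more CPM, and whether the counting used strand is not given in the sources used here.

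All 14 tested members of a list of zinc finger and related genes were above 0 at both levels, with medians of 0.53 in high and 0.42 in normal glucose. ZNF467, a zinc finger transcription factor, was the highest: 6.34, 6.92 and 8.51 CPM in CF against 1.62, 1.70, 1.68, 2.58 and 1.84 CPM in WT libraries in high glucose, and 3.77, 5.08 and 5.98 CPM in CF against 1.08, 1.90 and 2.26 CPM in WT cells in normal glucose. ZNF282 averaged 102 CPM in CF and 66.0 CPM in WT cells in high glucose and 112 CPM in CF and 73.2 CPM in WT cells in normal glucose. The lowest of the list were ZNF777, at 0.27 and 0.15, and ZNF775, at 0.38 and 0.03.

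The 15 tested members of the kinase, receptor and signalling list had medians of 0.48 and 0.45, with 12 and 11 above 0. BRAF (140719327 to 140924928, minus strand) had 24.8, 29.7 and 33.5 CPM in CF against 19.9, 20.04, 18.2, 24.1 and 24.3 CPM in WT libraries in high glucose, and 27.4, 34.3 and 43.7 CPM in CF against 17.6, 21.1 and 24.0 CPM in WT cells in normal glucose. The lowest CF library stood just above the highest WT library at both levels, with log2 fold changes of 0.46 ± 0.12 and 0.70 ± 0.12 (SE). BRAF overlaps NDUFB2 on the opposite strand, which averages 115 CPM against 26.7 CPM for BRAF. The log2 fold changes of NDUFB2 were 0.77 and 0.77, and whether reads are shared was not tested. RHEB, the small GTPase that activates mTORC1, averaged 168 CPM in CF and 116 CPM in WT cells in high glucose and 176 CPM in CF and 115 CPM in WT cells in normal glucose. DENND2A, an exchange factor for Rab GTPases, had folds of 2.02 and 2.16 and overlaps ADCK2 on the opposite strand, whose log2 fold changes were 0.54 and 0.58.

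**Figure D4:**
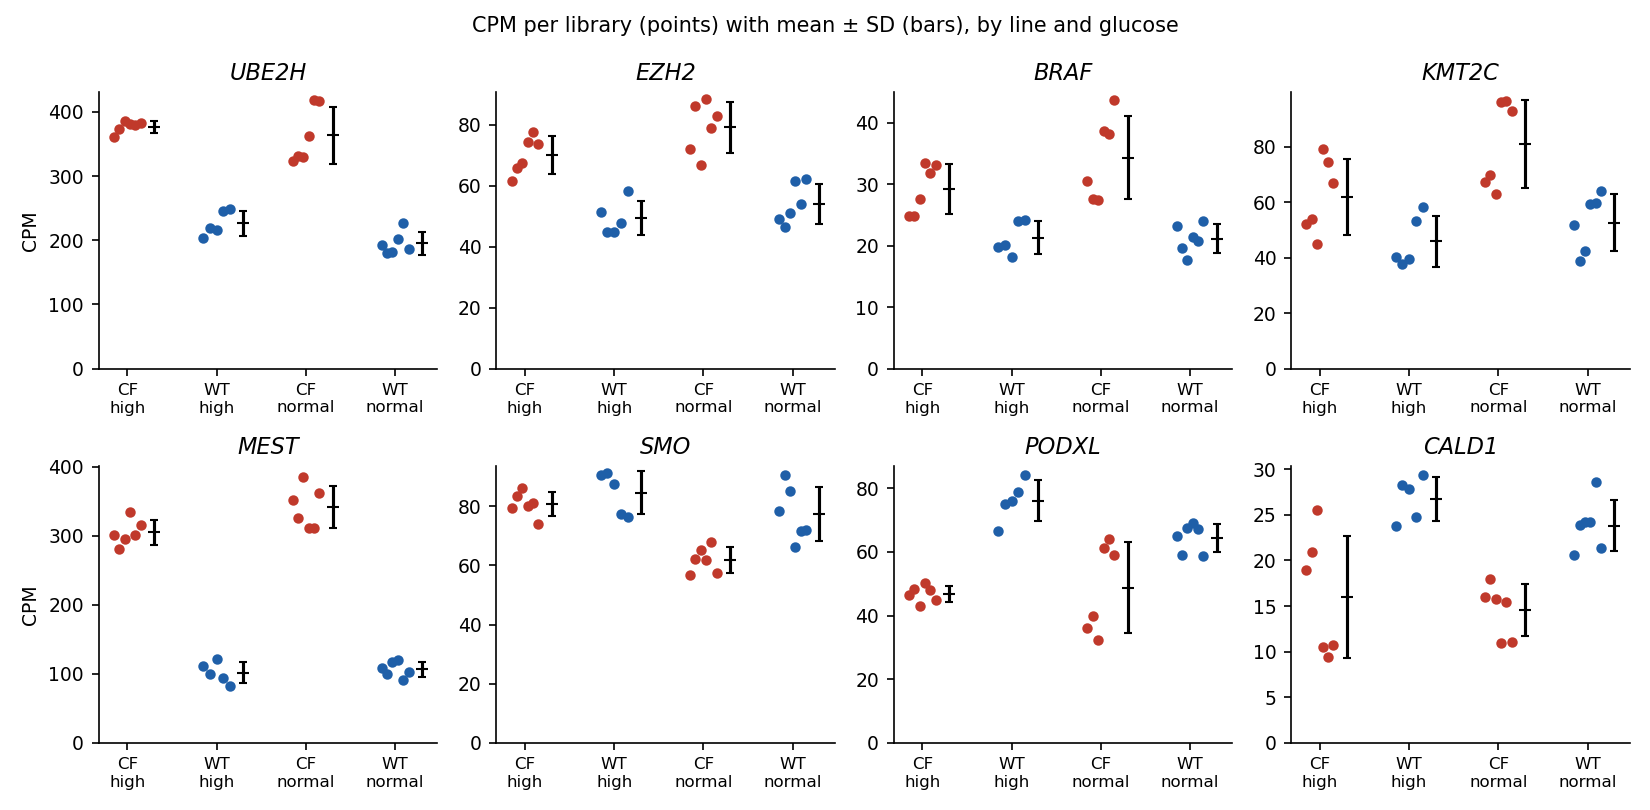
CPM of 8 members in each library (points) for CF and WT cells in high and then normal glucose, with bars for the mean ± SD; the vertical axes start at 0. CF libraries lie above WT libraries for UBE2H, EZH2, BRAF and MEST, overlap them for KMT2C and SMO, and are lower for PODXL in high glucose and for CALD1 in normal glucose.

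The 5 tested members of the ubiquitin and protein turnover list lay between 0.58 and 0.74 in high and between 0.50 and 0.90 in normal glucose. CUL1 (148697914 to 148801036, plus strand) had 115, 126 and 135 CPM in CF against 83.2, 78.3, 88.4, 84.9 and 86.1 CPM in WT libraries in high glucose, and 124, 134 and 138 CPM in CF against 80.5, 84.3 and 91.4 CPM in WT cells in normal glucose. The groups were far apart, at log2 fold changes of 0.58 ± 0.05 and 0.63 ± 0.05 (SE). MKRN1, a ubiquitin ligase, averaged 192 CPM in CF and 117 CPM in WT cells in high glucose and 232 CPM in CF and 125 CPM in WT cells in normal glucose.

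The 9 tested members of a list of mainly mitochondrial proteins were all above 0, with medians of 0.64 and 0.67. NDUFB2, a subunit of respiratory complex I, averaged 140 CPM in CF and 81.9 CPM in WT cells in high glucose, and MRPS33, a protein of the mitochondrial ribosome, 48.5 CPM in CF and 28.4 CPM in WT cells, although for both the ranges of the lines overlapped. TMEM178B reached 2.61 and 2.52 but stayed under 4 CPM on average. Of the cytoskeleton and trafficking list, 16 of 17 were above 0 at each level, with medians of 0.50 and 0.57. NUP205, a nuclear pore scaffold, averaged 297 CPM in CF and 211 CPM in WT cells in high glucose and 322 CPM in CF and 199 CPM in WT cells in normal glucose. The exception was CALD1.

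All 10 tested members of the metabolic list were above 0, with medians of 0.57 and 0.62. GALNT11, which starts O-linked glycans, had 93.5, 101 and 107 CPM in CF against 54.8, 61.4, 57.2, 45.8 and 53.6 CPM in WT libraries in high glucose, folds of 1.83 and 2.02. GSTK1, a glutathione transferase, averaged 244 CPM in CF and 126 CPM in WT cells in high glucose and 226 CPM in CF and 130 CPM in WT cells in normal glucose. TRPV6, an epithelial calcium channel, had the largest fold among members above 5 CPM whose lines did not overlap. It had 10.6, 13.6 and 16.8 CPM in CF against 4.16, 1.96, 2.98, 2.17 and 1.99 CPM in WT libraries in high glucose, and 5.10, 8.37 and 15.3 CPM in CF against 2.15, 2.74 and 3.40 CPM in WT cells in normal glucose.

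MEST (130486171 to 130506465, plus strand), an alpha/beta hydrolase, had 280, 301 and 334 CPM in CF against 111, 100, 121, 93.8 and 81.8 CPM in WT libraries in high glucose. In normal glucose it had 310, 339 and 385 CPM in CF against 90.3, 105 and 120 CPM in WT cells. The CF values were about 3 times the WT values, with log2 fold changes of 1.59 ± 0.09 and 1.68 ± 0.08 (SE), above the 0.57 and 0.59 of COPG2, the COPI coat gene whose end it overlaps on the opposite strand. The other genes of its imprinted neighbourhood were low: KLF14 stayed under 1 CPM on average with overlapping lines, and CPA4, a carboxypeptidase, had 18, 31, 19, 38, 37 and 48 counts in CF against 2, 1, 4, 2 and 4 counts in WT libraries in high glucose. In normal glucose CPA4 had 16, 22, 13, 28, 33 and 15 counts in CF against 1, 8, 12, 5, 1 and 5 counts in WT libraries, so the lines nearly met.

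Other members at a few counts in WT cells also stood high. DPP6, which modulates potassium channels in neurons, had 41, 45, 42, 32, 27 and 42 counts in CF against 5, 0, 1, 4 and 2 counts in WT libraries in high glucose. In normal glucose it had 18, 30, 16, 33, 86 and 33 counts in CF against 0, 4, 0, 0, 0 and 2 counts in WT libraries. The WT libraries held only 0 to 5 counts, so no fold is given. The 3 tested taste and olfactory receptor genes, TAS2R4, TAS2R5 and OR2A7, averaged at most 5.84 CPM in any group. FMC1 and KLRG2, which the fit did not test, had at most 17 and 14 counts in a library.

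A log2 fold change of 0 or less at both levels was found for 9 members (6.62% of members, against 36.3 percent of all genes). The cut at 0 leaves out members with values close to it, such as NRF1 at 0.05 in high and -0.00 in normal glucose and SMKR1 at 0.03 and -0.11. Of the 9 members, 5 lie next to each other before UBE2H. They are IRF5, an interferon regulatory factor, TNPO3, a nuclear import receptor of splicing factors, TSPAN33, SMO, the signal transducer of the Hedgehog pathway, and AHCYL2. TNPO3 averaged 73.0 CPM in CF and 87.0 CPM in WT cells in high glucose and 74.7 CPM in CF and 82.2 CPM in WT cells in normal glucose. SMO had 73.9, 80.7 and 86.3 CPM in CF against 90.5, 91.4, 87.4, 77.5 and 76.5 CPM in WT libraries in high glucose, and 56.8, 62.0 and 67.9 CPM in CF against 66.3, 75.3 and 90.8 CPM in WT cells in normal glucose. The lines overlapped for all 5 at both levels.

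The other 4, PODXL, CALD1, HIPK2 and TMEM139, lie singly among neighbours that were higher in CF. PODXL (131500262 to 131558217, minus strand), a sialomucin of the apical membrane, had 42.9, 47.3 and 50.1 CPM in CF against 66.6, 74.99, 76.0, 78.8 and 84.4 CPM in WT libraries in high glucose, wholly separate. In normal glucose it had 32.2, 49.4 and 64.2 CPM in CF against 58.8, 66.1 and 69.2 CPM in WT cells, with overlap. Its log2 fold changes were -0.70 ± 0.13 and -0.40 ± 0.13 (SE), while MKLN1 before it had 0.59 and 0.71 and CHCHD3 after it 0.53 and 0.64. CALD1 (134744252 to 134970728, plus strand), an actin-binding protein that restrains myosin, had 9.44, 14.8 and 25.5 CPM in CF against 23.7, 28.3, 27.8, 24.7 and 29.3 CPM in WT libraries in high glucose, and 11, 15.6 and 17.9 CPM in CF against 20.6, 24.1 and 28.6 CPM in WT cells in normal glucose. The lines met in high glucose only through the upper CF libraries, and the log2 fold changes were -0.74 ± 0.20 and -0.71 ± 0.19, between 0.42 and 0.31 for BPGM and 0.73 and 0.34 for AGBL3.

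HIPK2, a kinase that acts on transcription factors and p53, averaged 26.2 ± 4.29 CPM in CF (SD, n = 6) and 28.7 ± 4.76 CPM in WT cells (n = 5) in high glucose, and 26.7 ± 4.93 CPM in CF and 27.5 ± 4.63 CPM in WT cells (n = 6 each) in normal glucose. TMEM139 had 19.7, 22.4 and 26 CPM in CF against 28.2, 21.4, 22.1, 20.6 and 21.2 CPM in WT libraries in high glucose, and 10.8, 13.0 and 16.2 CPM in CF against 16.0, 19.0 and 21.3 CPM in WT cells in normal glucose. Its log2 fold change was -0.02 in high and -0.52 in normal glucose. Without WT high glucose 1, the library at 28.2 CPM, the high glucose value turned to 0.08, and TMEM139 then no longer counts among the 9. It also lay above 0 without CF high glucose 4 or 5 (0.00 and 0.01). Both neighbours of TMEM139, GSTK1 and CASP2, were higher in CF. EPHB6 was below 0 in normal glucose alone, at 0.46 in high and -0.10 in normal glucose. ZC3HAV1, an antiviral zinc finger protein, was at -0.01 in high and 0.18 in normal glucose. Of the 4 tested genes of a list of antiviral zinc finger and PARP genes, 2 were above 0 in high and 3 in normal glucose, with medians of 0.14 and 0.27. ZC3HAV1 averaged 128 CPM in both lines in high glucose, the 5 WT libraries running from 98.1 to 160 CPM.

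A promoter entry in RefSeq was matched for 116 of the 138 members, and UBE2H, NRF1 and PODXL are named only. In the 200 bases upstream, 65 of the 116 (56.0%) held at least 1 GC box on either strand, against 64.7% of 10447 matched promoters of tested protein-coding genes and 39.9% of all 27305 promoters in the table. The box was present in all 7 matched members at or below 0 at both levels, in 5 of the 6 other members before UBE2H, in 3 of the 12 with a fold of 2 or more at both levels and in 50 of the other 91. Those 7 are IRF5, TNPO3, TSPAN33, SMO and AHCYL2, all before UBE2H, and TMEM139 and CALD1, whose window is internal. Among the 12, CPA4, AKR1D1, SVOPL, TMEM178B, TAS2R5, KCNH2 and DPP6 averaged at most 2.65 CPM. Of the printed promoters, those of SMO, CALD1 and EZH2 hold it and those of TMEM209 and MEST do not. These are letters in a short window, counted over few genes and chosen with the values known, and no test was made.

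Partners of the members in the same complexes were looked at on other chromosomes, since the interval was not chosen on them. Of 83 such genes, none on chromosome 7, 9 passed an adjusted p under 0.05 between CF and WT in high glucose, 3 higher (9.35 percent of all genes) and 6 lower (10.6 percent), which is 10.8% against 19.9 percent of all genes, and 17 in normal glucose, 9 higher (11.4 percent) and 8 lower (13.0 percent), which is 20.5% against 24.4 percent (edgeR quasi-likelihood test, Benjamini-Hochberg over all genes). With a term for library numbers 1 to 3 against 4 to 6, 24 and 28 passed (against 30.4 and 34.5 percent of all genes). Their median log2 fold changes were 0.00 and 0.06. EED, which binds EZH2 in the Polycomb complex, averaged 46.2 CPM in CF and 76.8 CPM in WT cells in high glucose (log2 fold change -0.73 ± 0.09 SE, adjusted p = 4.13e-07, edgeR) and 49.0 CPM in CF and 75.7 CPM in WT cells in normal glucose (-0.63 ± 0.08, adjusted p = 2.09e-06, edgeR).

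ASH2L, a core subunit of the KMT2C complex, fell to 37.8 CPM in CF against 69.5 CPM in WT cells in high glucose and to 36.3 CPM in CF against 67.4 CPM in WT cells in normal glucose (edgeR adjusted p = 4.28e-11 and 1.27e-11), and CNOT7, a deadenylase that works with CNOT4, to 67.5 CPM in CF against 141 CPM in WT cells in high glucose (edgeR adjusted p = 3.15e-08). Among proton pump subunits, ATP6V1B2 was lower in CF at both levels, at -0.86 and -0.72 (edgeR adjusted p = 4.77e-10 and 4.11e-09), and ATP6AP1 higher, at 0.20 and 0.15 (edgeR adjusted p = 0.00738 and 0.031). KSR1, the scaffold of the BRAF pathway, was higher at both levels, at 0.36 and 0.33 (edgeR adjusted p = 0.0236 and 0.0264). ASH2L, CNOT7 and ATP6V1B2 all lie on chromosome 8, and EED lies on chromosome 11. Whether their neighbours on those chromosomes share the difference was not tested here. None of the 8 exocyst partners of EXOC4 passed at either level.

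The response of the members to glucose was not used to choose them. In CF cells 17 of 136 members changed between high and normal glucose at an adjusted p under 0.05 (12.5%, against 8.41 percent of all genes): 10 rose, against 4.27 percent of all genes that rose, and 7 fell, against 4.14 percent. EPHA1, an ephrin receptor tyrosine kinase, had 61.5, 64.7 and 73.2 CPM in high and 41.5, 44.4 and 48.1 CPM in normal glucose, with no overlap (log2 fold change 0.56 ± 0.06 SE, adjusted p = 2.92e-06, edgeR). The gene overlaps ZYX on the opposite strand, which averages 115 CPM against 46.0 CPM for EPHA1. TMEM139 rose most, to 19.7, 22.4 and 26 CPM in high against 10.8, 13.0 and 16.2 CPM in normal glucose (0.77 ± 0.10, adjusted p = 3.52e-05, edgeR). SMO rose as well, at 73.9 to 86.3 CPM in high and 56.8 to 67.9 CPM in normal glucose (0.38 ± 0.07, adjusted p = 0.000933, edgeR).

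SLC35B4, a transporter of nucleotide sugars into the Golgi, rose in both lines. It had 27.8, 30.0 and 32.2 CPM in high and 19.99, 22.2 and 23.6 CPM in normal glucose in CF cells (0.45 ± 0.07, adjusted p = 0.000169, edgeR), and 19.1, 18.1, 21.8, 21.6 and 22.9 CPM in high and 13.6, 16.1 and 17.6 CPM in normal glucose in WT cells (0.38 ± 0.08, adjusted p = 0.00478, edgeR). The libraries of the glucose levels did not overlap in either line. The other members that rose in CF were ZNF467 (0.51, adjusted p = 0.0354), EPHB6, a kinase-dead ephrin receptor (0.44, adjusted p = 0.0157), CEP41 (0.35, adjusted p = 0.0103), ZNF786 (0.34, adjusted p = 0.0141), TMEM140 (0.34, adjusted p = 0.00478) and ZNF746 (0.22, adjusted p = 0.0216), all by edgeR.

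DENND2A fell in both lines, to 91.3, 109 and 125 CPM in high against 119, 150 and 176 CPM in normal glucose in CF cells (-0.47 ± 0.08, adjusted p = 0.000676, edgeR) and to 54.3, 57.8, 51.8, 48.3 and 55.4 CPM in high against 66.4, 68.2 and 74.5 CPM in normal glucose in WT cells (-0.38 ± 0.09, adjusted p = 0.0197, edgeR). The glucose levels overlapped in CF and not in WT cells. The other members that fell in CF were TCAF2 (-0.50, adjusted p = 0.0176), ARHGEF5 (-0.29, adjusted p = 0.0245), MKRN1 (-0.27, adjusted p = 0.00256), KDM7A (-0.25, adjusted p = 0.0318), KLHDC10 (-0.24, adjusted p = 0.0301) and XRCC2, a recombination repair protein (-0.22, adjusted p = 0.0112), all by edgeR. TCAF2 and ARHGEF5 have near-identical copies nearby, so their counts are uncertain. In libraries 1 to 3 alone EPHB6, CEP41 and ZNF786 did not pass in CF (edgeR adjusted p = 0.173, 0.0955 and 0.144), nor did SLC35B4 in WT cells (0.0814). KDM7A did not pass in CF there either. XRCC2 did not pass in libraries 4 to 6 alone (0.12) or with no low-count filter. ZNF467 and TCAF2 also failed in libraries 4 to 6 alone, and ZNF467, KDM7A and KLHDC10 with no low-count filter. On log2 FPKM, KDM7A, ZNF467, KLHDC10 and ARHGEF5 in CF and DENND2A in WT cells failed in at least 1 setting. TMEM140 and ZNF746 were left out of these checks and of those that follow. Some calls did not hold when 1 library was left out. The call of ZNF467 in CF was lost without high glucose 1, 3, 4, 5 or 6 or normal glucose 1, 2, 3 or 6 (edgeR adjusted p up to 0.0945). That of KDM7A was lost without high glucose 1, 2, 3 or 6 or normal glucose 2, 4, 5 or 6 (edgeR adjusted p up to 0.0818). KLHDC10 was lost without high glucose 1 or 2 or normal glucose 2, 5 or 6 (up to 0.0762). ARHGEF5 was lost without high glucose 1 or 2 or normal glucose 4, 5 or 6 (up to 0.0684), and TCAF2 without high glucose 2 (0.0516). In WT cells the call of DENND2A was lost without high glucose 3 or 4 or normal glucose 5 or 6 (edgeR adjusted p up to 0.081).

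In WT cells SLC35B4 and DENND2A were the members called, 2 of 136 (1.47%, against 2.95 percent of all genes), 1 higher (1.49 percent) and 1 lower (1.46 percent). The median glucose response of the members was -0.01 in CF and 0.02 in WT cells, near the 0.00 of all genes in each line.

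**Figure D5:**
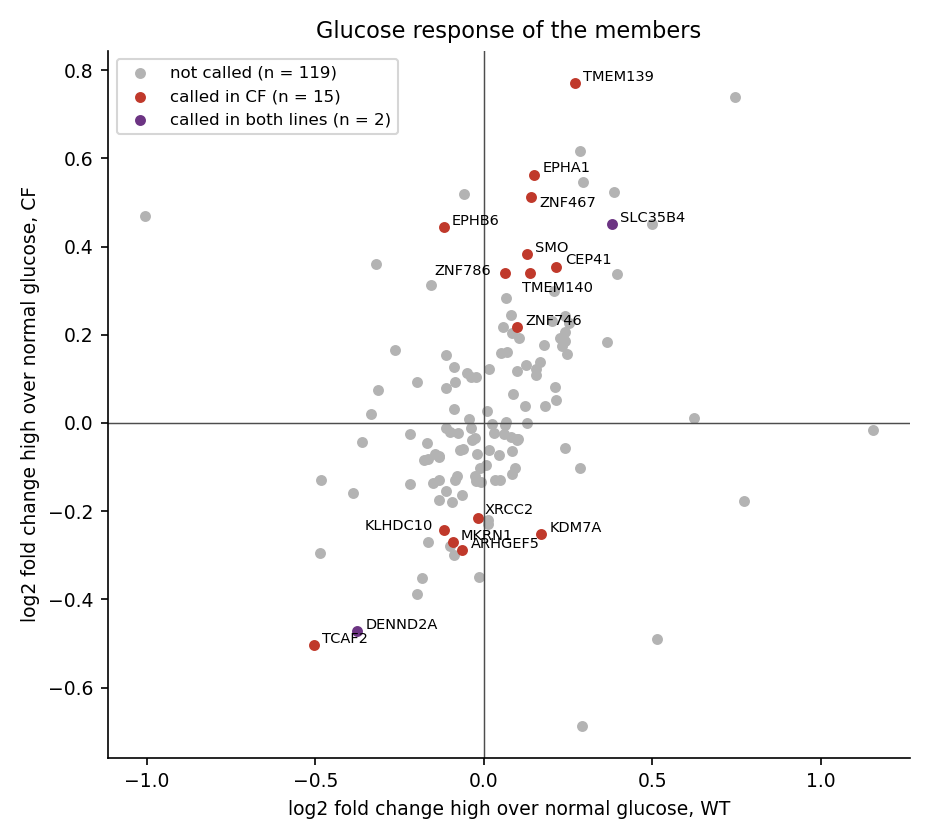
High over normal glucose log2 fold change of each tested member in CF (vertical) against WT cells (horizontal); grey, not called; red, adjusted p under 0.05 in CF; violet, in both lines. SLC35B4 lies upper right and DENND2A lower left, and TMEM139, at 0.77 in CF and 0.27 in WT cells, has the largest called rise.

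No member differed between the lines in its glucose response at an adjusted p under 0.05 by edgeR (0 of 136, against 0.0367 percent of all genes), and 13 had an unadjusted p under 0.05 (6.79 percent of all genes); DESeq2 called 1, EPHA1. The lowest p-values were those of EPHA1, whose response in CF minus that in WT was 0.41 ± 0.09 (SE, adjusted p = 0.0982, edgeR), KDM7A at -0.42 ± 0.11 (adjusted p = 0.216, edgeR) and EPHB6 at 0.56 ± 0.17 (adjusted p = 0.306, edgeR). With a term for library numbers 1 to 3 against 4 to 6, the counts were 33 in CF (24.3%, against 17.2 percent of all genes), 12 in WT (8.82%, against 8.68 percent) and 3 for the difference (0.894 percent of all genes): EPHA1, KDM7A and TMEM139 (edgeR adjusted p = 0.011, 0.0232 and 0.0233). Libraries 1 to 3 alone gave 21 in CF (8.44 percent of all genes), 4 in WT (2.65 percent) and 0 for the difference (0.00626 percent). Libraries 4 to 6 alone gave 25 (13.8 percent), 6 (4.88 percent) and 9 (2.29 percent).

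Of the 9 members called for the difference in libraries 4 to 6, TRPV6 had the largest gap, a response of 1.27 in CF and -0.44 in WT cells (edgeR adjusted p = 0.000103), and PODXL responded by -0.37 in CF and 0.33 in WT cells (edgeR adjusted p = 2.5e-05). Libraries 1 to 3 called neither. WT high glucose has no library 6, so the WT high glucose side of these responses rests on WT high glucose 4 and 5 alone.

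Polarized WT cells were compared with WT cells labelled as not polarized, both in normal glucose, in a fit of 9 libraries that tested 124 members and scaled CPM within those libraries, so its CPM differ slightly from those above. At an adjusted p under 0.05, 56 members changed (45.2%, against 50 percent of all genes), 26 higher (26 percent of all genes) and 30 lower (23.9 percent) in polarized cells. The median log2 fold change was -0.01. DENND2A rose most, to 68.6, 70.1 and 76.7 CPM in polarized against 13.1, 13.3 and 13.8 CPM in not polarized cells (2.41 ± 0.08 SE, adjusted p = 2.35e-11, edgeR). PODXL fell most, to 60.6, 68.0 and 71.5 CPM in polarized against 195, 197 and 204 CPM in not polarized cells (-1.58 ± 0.07, adjusted p = 2.94e-10, edgeR). In both the libraries were far apart.

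KCP, a secreted regulator of BMP signalling, rose to a median of 28.1 CPM in polarized against 7.02 CPM in not polarized cells (2.09, adjusted p = 6.18e-06, edgeR), and ATP6V1FNB, which overlaps it on the opposite strand, by 1.64 (adjusted p = 4.32e-05, edgeR). MEST rose to 93.0, 108 and 124 CPM in polarized against 63.7, 65.2 and 66.6 CPM in not polarized cells (0.75 ± 0.09, adjusted p = 8.71e-06, edgeR), and CHPF2, an enzyme of chondroitin synthesis, and ZNF775 rose by 0.72 and 0.71. CCDC136, CEP41, AHCYL2, ZNF777 and PRKAG2, a regulatory subunit of AMP kinase, fell by 0.84, 0.81, 0.65, 0.62 and 0.56 on the log2 scale.

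UBE2H fell in polarized cells, at 185, 195 and 234 CPM against 273, 275 and 280 CPM in not polarized cells (-0.46 ± 0.07, adjusted p = 0.000172, edgeR), as did CUL1 (-0.40 ± 0.06, adjusted p = 7.17e-05, edgeR) and EZH2 (-0.27 ± 0.09, adjusted p = 0.0275, edgeR). Without any one of WT normal glucose 1 or 3 or not polarized 2 or 3, EZH2 no longer passed (edgeR adjusted p up to 0.124). BRAF and KMT2C did not pass, at -0.24 and 0.13. All members together took 0.490 to 0.532% of counts in polarized and 0.563 to 0.566% in not polarized libraries, with no overlap. The median of the members from UBE2H on lay between -0.10 and 0.06 in the 6 polarized libraries and between 0.03 and 0.05 in the 3 not polarized libraries, on the scale of log2 CPM minus the polarized mean.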

How the data were processed

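Poly(A) RNA of 26 libraries was sequenced; reads were aligned with HISAT2 to hg38, per the submitters' processing notes. Sources used here do not give the counting tool, its strand setting or versions, so genes that overlap on opposite strands may share reads. The authors deposited raw counts per gene, with gene positions, and FPKM values scaled to length and library total. Positions of the 138 members matched GENCODE release 29. Tests on counts used edgeR 4.0.16 in R 4.3.3 (normalization by TMM, filterByExpr with a minimum count of 10 and total of 15, quasi-likelihood test, robust dispersion, Benjamini-Hochberg over all tested genes, threshold 0.05): 1 fit of the 23 glucose libraries with a mean for each of 4 groups (19 residual degrees of freedom), and 1 of the 9 WT polarized and not polarized libraries. CPM use TMM-adjusted library sizes. The fits were tested on simulated data. Members and gene lists were chosen with earlier results of these data known.

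Named members are the 8 highest in CF with no overlap and at least 5 CPM in a group, those at or below 0 at both levels, the 3 at each end, up to 8 called per line and direction for glucose, the 3 lowest p-values for the difference, up to 6 per direction for polarization, EZH2, BRAF, CUL1 and KMT2C, and list members as examples; TMEM209, ZC3HAV1, NRF1, UBE2H, DPP6, TMEM140 and ZNF746 were added after their values were seen. Alternatives were DESeq2 1.42.0, RLE factors, other low-count filters, limma 3.58.1 on log2 of the deposited FPKM plus 1 or 0.1, a block or a set term for library numbers, each set of numbers alone, all 26 libraries in 1 fit, and each library left out. A window along the interval and a marker are not reported here.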

Additional observations from a re-analysis of the deposited data

Results flagged for a closer look

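In 184 groups of 5 or 6 libraries of the named members, 1 library stood apart from the rest of its group by Dixon's criterion at the 95% level in 9; chance gives about 1 group in 20. Higher than the rest were ZNF467 at 2.58 CPM in WT high glucose 4, TRIM24 at 84.6 CPM in CF high glucose 2, TMEM139 at 28.2 CPM in WT high glucose 1, TSPAN33 at 21.3 CPM in CF normal glucose 3, IRF5 at 22.4 CPM in CF normal glucose 5, ZNF775 at 4.98 CPM in WT high glucose 2 and CHPF2 at 117 CPM in WT normal glucose 6. Lower than the rest were LMBR1 at 87.2 CPM in WT normal glucose 6 and NOM1 at 25.7 CPM in WT normal glucose 2. Of these, TMEM139 in WT high glucose bears on the direction given above: without that library the other 4 lie between 20.6 and 22.1 CPM, and the CF over WT log2 fold change is 0.08 in place of -0.02.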

How the results depend on the processing

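The median CF over WT log2 fold change of the members, 0.54 in high and 0.59 in normal glucose, was smaller on log2(FPKM + 1), at 0.43 and 0.43, and without a low-value filter at 0.40 and 0.37. The count of members called for glucose in CF, 17, became 30 with the library number as a replicate block and 33 with a term for numbers 1 to 3 against 4 to 6, while the share of all genes was 15.7 and 17.2 percent under these settings, against 8.41 percent as reported. The count in WT, 2, became 4 with a stricter filter, 10 with DESeq2, 1 on log2(FPKM + 1) with no filter, 9 with the block, 12 with the number term, 4 and 6 in libraries 1 to 3 and 4 to 6 alone, and 4 with all 26 libraries in 1 fit. The share of all genes, 2.95 percent as reported, was 3.50, 5.6, 0.895, 6.68, 8.68, 2.65, 4.88 and 3.65 percent under these settings in the same order. The count for the difference in response, 0, became 1 with DESeq2, 1 with the block, 3 with the number term and 9 in libraries 4 to 6 alone, where 0.475, 0.447, 0.894 and 2.29 percent of all genes were called. Partner genes called between the lines, 9 in high and 17 in normal glucose, became 21 and 26 with the block, 24 and 28 with the number term, and in libraries 4 to 6 alone 25 in high glucose; the shares of all genes were 28.1 and 33.2, 30.4 and 34.5, and 27.9 percent. The cause of these moves was not tested.

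Leaving out 1 library at a time gave medians of 0.53 to 0.56 and 0.58 to 0.61, 12 to 18 members called in CF, 1 (without WT high glucose 3) to 4 (without WT normal glucose 2) in WT, 0 to 0 for the difference, 44 to 60 for polarization, 7 to 11 at or below 0 at both levels, and 7 to 11 and 11 (without WT normal glucose 5) to 17 partners. The shares of all genes called ran from 6.53 to 9.81 percent in CF, 1.70 to 3.30 in WT, 40.5 to 52.5 for polarization, and were at least 17.3 in high and 22.3 in normal glucose between the lines. Same-numbered libraries were not taken as pairs: their residuals correlated at a mean r of 0.26 for glucose in CF, but in no comparison was every pair above 0.1. The count of 9 members at or below 0 stayed between 8 and 10 under the other settings.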
